A study of Homo sapiens with 6 samples.

Results

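The genes described here were the well expressed members of the ZNF family, a class of human genes named for the zinc fingers in their proteins. They were the rows of the gene count table whose symbol was ZNF followed by a number and at most one letter, with a mean raw count of at least 2000 over all 6 libraries. The rule found 272 genes among the 62700 in the table, out of 563 rows with such a symbol, and 486 of those rows entered the test. The genes were thus chosen by their mean count, so their abundance is a description and supports nothing. All 272 passed the filter on low counts.

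The libraries were RNA-seq of PC3, an established human prostate cancer cell line. The 3 control libraries came from PC3 cells with a control shRNA (a short hairpin RNA, which is processed into a small RNA that guides the breakdown of its target transcript), whose genotype the labels give as WT. The other 3 came from PC3 cells with an shRNA against TTC3, an E3 ubiquitin ligase gene, with the genotype given as TTC3 knockdown. How many hairpin sequences were used, whether the cells were a pool or clones, and whether the libraries came from separate cultures are not stated in the labels, and the p-values therefore reflect library-to-library spread alone, part or all of it possibly technical.

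A C2H2 zinc finger is a short protein fold in which a pair of cysteines and a pair of histidines hold a zinc ion, and tandem arrays of such fingers read DNA sequence. Many ZNF proteins also carry a KRAB domain, which recruits the scaffold protein TRIM28 and through it the histone methyltransferase SETDB1 and HP1 proteins, and many of these KRAB proteins bind and silence transposable elements. KRAB ZNF genes multiplied by tandem duplication, and large arrays of them lie on chromosome 19. Other ZNF genes encode unrelated proteins, among them subunits of chromatin complexes, RNA-binding proteins and ubiquitin ligases.

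The KRAB domain divides the family, so its coding sequence is shown for the 3 largest falls and for the KRAB gene with the largest rise. The core was searched in translated coding sequences of GENCODE 29 as a pattern with 13 fixed residues, and a protein was called KRAB when at least 9 of the 13 matched ahead of its first finger. Each line gives 72 bases in reading order, 5′ to 3′, with capitals for the codons of matching fixed residues. The ZNF91 core lies at chr19:23374660-23374731 on the minus strand and matched 13 of 13. ZNF844 lies at chr19:12074064-12074135 on the plus strand and matched 11, ZNF528 at chr19:52405940-52406011 on the plus strand and matched 13, and ZNF212 at chr7:149250714-149250785 on the plus strand and matched 10 (all hg38).
ZNF91: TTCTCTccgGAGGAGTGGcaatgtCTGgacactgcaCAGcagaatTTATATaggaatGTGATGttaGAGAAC
ZNF844: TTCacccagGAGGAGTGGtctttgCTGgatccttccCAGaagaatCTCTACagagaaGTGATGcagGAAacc
ZNF528: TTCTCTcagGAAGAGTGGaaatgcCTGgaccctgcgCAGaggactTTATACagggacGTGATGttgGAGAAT
ZNF212: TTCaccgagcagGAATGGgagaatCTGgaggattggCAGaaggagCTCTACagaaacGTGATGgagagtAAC
With this search 154 of the 272 genes were KRAB genes, in 115 no core was found, and 3 had no coding transcript in the annotation. The pattern can miss divergent domains. Outside the 272 genes, ZKSCAN1, ZKSCAN8 and ZKSCAN2 matched only 6, 6 and 7 residues, in a family named in part for its KRAB domain. These 3 were named afterwards. Genes without KRAB are therefore, here and below, genes in which this search found no core. At least one C2H2 finger was found in 262, and the genes without one included ZNF503, ZNF703 and ZNF330.

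Libraries held 143246356 to 155526861 counts. TTC3 was at 695, 684 and 680.2 CPM (counts scaled to a common library size with TMM factors) in control cells and at 228, 183 and 178 CPM in TTC3 shRNA cells, and fell by 1.81 ± 0.10 on the log2 scale (SE, adjusted p = 5.65e-05, edgeR quasi-likelihood test). The epithelial keratin KRT8 (165 ± 4.09 CPM in control cells, SD, n = 3) and vimentin (VIM, 1238 ± 7.27 CPM) were abundant, the epithelial genes CDH1 and EPCAM were at 1.97 ± 0.0636 and 4.42 ± 0.0902 CPM, and KLK3 and CD3E were at 0 in every library. In TTC3 shRNA cells CDH1 was lower (0.599 CPM, log2 fold change -1.72, adjusted p = 0.000959), while VIM (0.40, adjusted p = 0.0194), KRT18 (0.53, adjusted p = 0.0392) and EPCAM (0.32, adjusted p = 0.042) were higher and KRT8 did not pass (0.01, adjusted p = 0.934). The part of these shifts in the ZNF results was not tested. TTC3 shRNA replicate 1 stood apart from replicates 2 and 3 of its group. Over 10517 genes, log2 CPM relative to the mean of the controls had a slope with transcript GC content of 0.27 and 0.30 per 10 percentage points in TTC3 shRNA replicates 2 and 3, of -0.03 in TTC3 shRNA replicate 1 and of -0.03 to 0.01 in the controls. Per doubling of transcript length the slopes were -0.02, -0.15 and -0.19 in TTC3 shRNA replicates 1 to 3 and -0.004 to 0.006 in the controls.

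Most of the ZNF genes that passed the test were lower in TTC3 shRNA cells. At an adjusted p below 0.05, 113 of the 272 fell, against 17.8% of all 24325 genes tested, and 20 rose, against 15.7% of all genes. Among the 9296 tested genes with the same minimum count, 17.3% fell and 27.1% rose. The median log2 fold change of the ZNF genes was -0.23, against -0.02 for all tested genes and 0.07 for genes of the same minimum count, and it was -0.14, -0.30 and -0.31 in TTC3 shRNA replicates 1, 2 and 3 taken singly. Falls of at least 2-fold numbered 12, against 8.55% of all genes and 2.52% of genes of the same minimum count. Rises of at least 2-fold numbered 1, against 2.92% and 1.65%. All 3 TTC3 shRNA libraries lay below all 3 controls for 141 ZNF genes (27% of all genes and 24.5% of those of the same minimum count) and above them for 29 (23.3% and 36%). Omitting TTC3 shRNA replicate 1 gave 178 falls. Omitting replicate 2 of that group gave 74, and omitting control replicate 1 or 2 gave 71 or 74. The count of rises was 53 without TTC3 shRNA replicate 1 and 3 to 8 without any of the other 5 libraries. Over all tested genes the rises numbered 6674 and 1835 to 2741 in the same fits. In these bulk samples fewer cells of a type and less RNA per cell cannot be told apart.

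ZNF91, a KRAB gene with 31 fingers found and known for silencing SVA retrotransposons, fell furthest. It lies on chromosome 19 from 23304991 to 23395560 (ENSG00000167232.14, protein-coding, hg38). Its levels were 198, 191 and 189 CPM in the control libraries and 68.2, 52.1 and 52.4 CPM in the TTC3 shRNA libraries. The groups did not overlap, and the highest TTC3 shRNA library was far below the lowest control. The fall was 1.74 ± 0.11 on the log2 scale (SE, adjusted p = 9.31e-05), a 3.35-fold lower level.

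ZNF844, on chromosome 19 from 12064699 to 12081565 (ENSG00000223547.10), was at 25.3, 27.9 and 31.9 CPM in control cells and at 8.92, 9.41 and 8.22 CPM in TTC3 shRNA cells. ZNF528 (52397849 to 52418412, ENSG00000167555.14) was at 22.8, 20.8 and 23.5 CPM in control cells and 8.53, 6.45 and 6.91 CPM in TTC3 shRNA cells. ZNF347 (53124072 to 53159075, ENSG00000197937.13) was at 30.9, 32.7 and 31.3 CPM in control cells and 11.9, 10.4 and 9.83 CPM in TTC3 shRNA cells. None of these 3 KRAB genes had overlapping groups. On the log2 scale ZNF844 fell by 1.68 ± 0.11 (adjusted p = 8.55e-05), ZNF528 by 1.62 ± 0.12 (adjusted p = 0.000178) and ZNF347 by 1.56 ± 0.09 (adjusted p = 5.74e-05).

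ZNF385D was the largest fall outside chromosome 19 and outside the KRAB class. It is a long gene on chromosome 3 (21412222 to 22373321, ENSG00000151789.13) of the small ZNF385 family. It was at 24.5, 24.8 and 24.5 CPM in control cells and 12.5, 9.08 and 8.79 CPM in TTC3 shRNA cells, with no overlap, and fell by 1.28 ± 0.14 (adjusted p = 0.000807). The other 7 falls of at least 2-fold were KRAB genes of chromosome 19: ZNF441, ZNF320, ZNF28, ZNF426, ZNF525, ZNF625 and ZNF841, with log2 fold changes from -1.19 to -1.03. Non-overlapping groups were part of the rule that chose these 12 genes. ZNF320 had the smallest standard error of them (0.06), at 57.0, 56.0 and 56.1 CPM in control cells and 25.9, 24.2 and 25.8 CPM in TTC3 shRNA cells (adjusted p = 3.51e-05). All 12 largest falls passed the test under each of the 18 alternatives tried.

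Sequence shared with other annotated genes makes some of these levels uncertain. Of 271 ZNF genes with a transcript matched in GENCODE 29, 164 shared no 75-base window of it with another gene and 36 shared at least 10% of windows. The search did not separate duplicated copies from overlapping gene models at the same place. ZNF320 shared 99.5%, measured on a transcript that held only 9.84% of its counts, and ZNF625 shared 98.96%. How reads were divided between genes that share sequence is not given in the sources used here. ZNF91, ZNF528 and ZNF28 shared 0.332%, 0.026% and 3.93%, and ZNF844, ZNF347 and ZNF441 shared 0%. Across the 154 KRAB genes, Spearman's rho between the shared percentage and the log2 fold change was -0.05, as a description over genes, which are not independent replicates. In the transcript table, the most counted transcript of 11 of the 12 genes was lower in all 3 TTC3 shRNA libraries than in any control. The exception was ZNF320, with overlapping groups. Its most counted matched transcript held 5.62% of the gene's counts in control cells, so it does not stand for most of them.

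**Figure D1:**
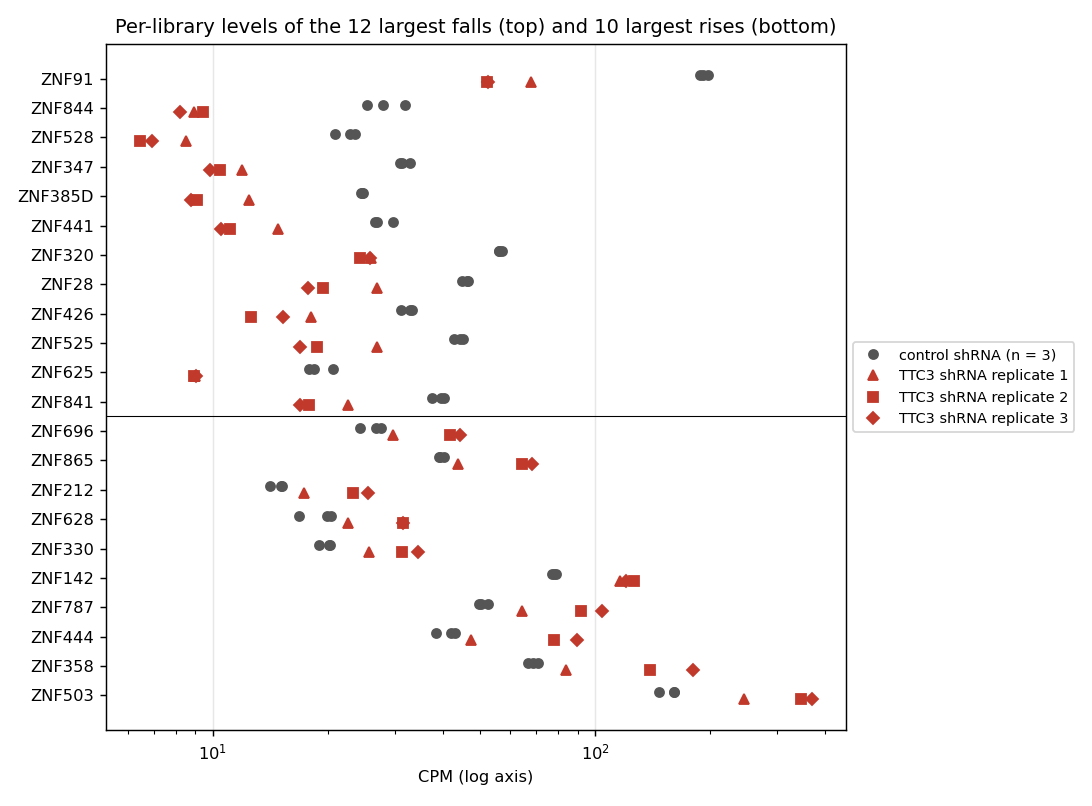
Levels of the 12 largest falls (top) and 10 largest rises (bottom) in CPM on a log axis, 1 point per library (grey, 3 control shRNA libraries; red, TTC3 shRNA replicates 1 to 3 by shape). Groups that do not overlap were a condition for choosing these genes, and TTC3 shRNA replicate 1 (triangles) is often the red point nearest the controls, as for ZNF358 at 83.9 against 139 and 180.1 CPM.

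KRAB genes made up most of the falls. Of the 154 KRAB genes 87 fell (56.5%) and 4 rose (2.60%), with a median log2 fold change of -0.35. They held 11 of the 12 falls of at least 2-fold. Of the 115 genes without KRAB 24 fell (20.9%) and 16 rose (13.9%), with a median of -0.08. Among all tested genes of the same minimum count 17.3% fell and 27.1% rose, with a median of 0.07. The summed level of the KRAB genes was 5849, 5756 and 5745 CPM in the control libraries and 4847, 4347 and 4290.0 CPM in the TTC3 shRNA libraries. The summed level of the genes without KRAB was 6731, 6707 and 6675 CPM in control cells and 6559, 6447 and 6452 CPM in TTC3 shRNA cells. Both sums were lower in all 3 TTC3 shRNA libraries, the KRAB sum by the larger amount. Without any 1 library the count of KRAB falls ran from 57 (without control replicate 1) to 120 (without TTC3 shRNA replicate 1). The falls without KRAB ran from 12 to 55. Of other protein-coding genes of the same minimum count 9.75% fell without control replicate 1 and 33.7% without TTC3 shRNA replicate 1. Scaled by library totals alone, the genes without KRAB had 33 falls and 12 rises. The difference between the classes was not tested.

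The classes were also divided by chromosome. Beside them, 17.3% of all tested genes of the same minimum count fell and 27.1% rose. The 96 KRAB genes on chromosome 19 had 65 falls (67.7%) and 1 rise (1.04%), with a median log2 fold change of -0.42. The 58 KRAB genes elsewhere had 22 falls (37.9%) and 3 rises (5.17%), with a median of -0.19. The 93 genes without KRAB on other chromosomes had 21 falls (22.6%) and 11 rises (11.8%), with a median of -0.09. The 22 without KRAB on chromosome 19 had 3 falls (13.6%) and 5 rises (22.7%), with a median of 0.19. The 3 falls were ZNF260, ZNF83 and ZNF134, named after their values were seen. The median of these 22 genes became -0.03 once each library's trends with transcript length and GC content were removed. Of 499 other chromosome 19 genes of the same minimum count 30 fell and 198 rose, with a median of 0.32.

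**Figure D2:**
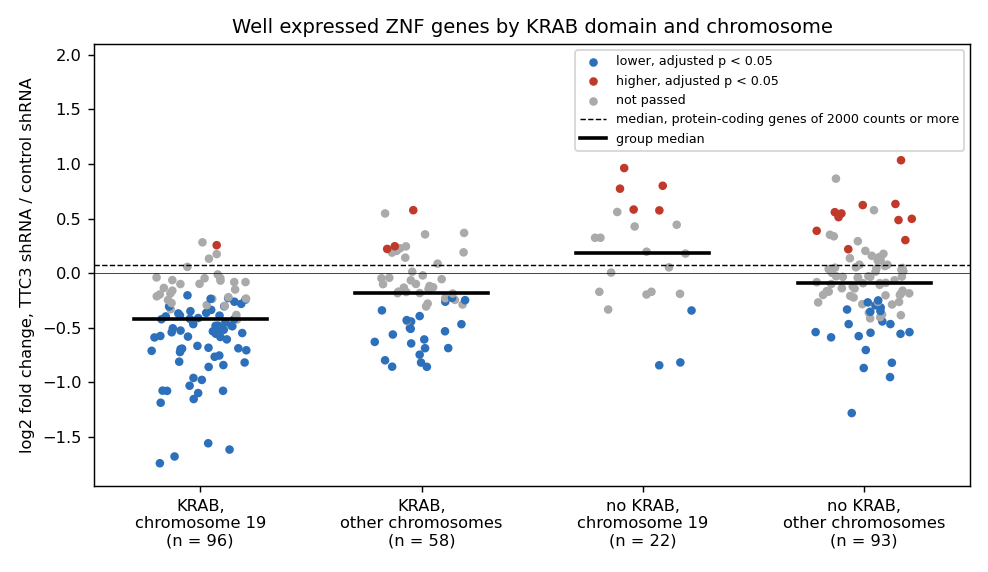
Log2 fold change (TTC3 shRNA over control shRNA) of each ZNF gene, 1 point per gene, in 4 classes by KRAB domain and chromosome (blue, fell; red, rose; grey, did not pass). Black bars are class medians, -0.42, -0.19, 0.19 and -0.09 from left to right, and the dashed line is the median of protein-coding genes of the same minimum count, 0.07.

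Along chromosome 19 many of the falls lay in 3 gene arrays. The ZNF genes there were split into 15 runs wherever consecutive starts were more than 1 Mb apart, a definition chosen after the values were seen and given without a test. The run from 51571298 to 53580269 held 26 genes, 25 of them KRAB genes, of which 23 fell and none rose (median log2 fold change -0.71). It includes ZNF528, ZNF347, ZNF320, ZNF28, ZNF525 and ZNF841. The 3 genes in it that did not pass, named after their values were seen, were ZNF175 (-0.15), ZNF615 (-0.38) and ZNF611 (-0.21).

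The run from 11559374 to 12640098 held 14 KRAB genes, of which 12 fell and none rose (median -0.65). ZNF844, ZNF441 and ZNF625 lie there, and ZNF440 (-0.07) and ZNF490 (-0.19) did not pass. These 2 genes, and ZNF675 and ZNF254 below, were also named after their values were seen. The run from 23221599 to 24129961 held 4 KRAB genes and 3 falls, ZNF91, ZNF675 and ZNF254. Its neighbours of ZNF91 were less reduced: ZNF675 fell by 0.86 and ZNF254 by 0.82 on the log2 scale. In these 3 runs together 38 of 44 genes fell (86.4%) and none rose, against 17.3% and 27.1% of all genes of the same minimum count. These runs were picked out for their falls, so the count is a description only. It was 32 to 34 without any 1 library other than TTC3 shRNA replicate 1, and 43 without that library. Of other protein-coding genes of the same minimum count 9.75% to 12.3% and 33.7% fell in the same fits.

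The run nearest the short-arm end, with 12 genes, had 7 falls and 1 rise (median -0.31). The most distal run on the long arm, from 55476332 to 58475436, held 40 genes, 31 with KRAB (median -0.17). Of these 40 genes 15 fell (37.5%) and 5 rose (12.5%), against 17.3% and 27.1% of all genes of the same minimum count. Falls in this run went from -0.58 for ZNF419 to -0.20 for ZNF304. Of its 5 rises 4, ZNF865, ZNF628, ZNF787 and ZNF444, were genes without KRAB. ZNF274, a KRAB protein known to bind the 3′ ends of ZNF genes and recruit SETDB1, lies there and fell by 0.34; it was named after its values were seen, as were ZNF419 and ZNF304. Without any 1 library the count of falls in this run was 4 to 6, except for 21 without TTC3 shRNA replicate 1. That last fit also called falls in 33.7% of other protein-coding genes of the same minimum count.

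**Figure D3:**
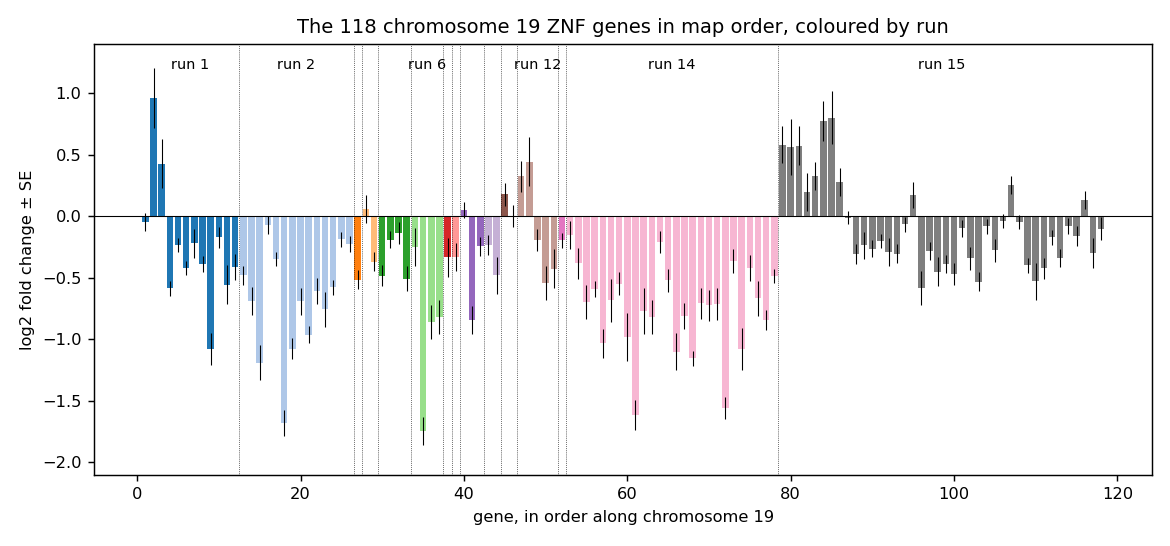
Log2 fold change ± SE of the 118 ZNF genes on chromosome 19, in order along the chromosome, with dotted lines and colours marking the 15 runs. The bars of runs 2, 6 and 14 all point down (medians -0.65, -0.84 and -0.71), while run 15 opens with genes above 0 and continues with small falls (median -0.17).

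Falls were also counted by the number of fingers. Among all tested genes of the same minimum count 17.3% fell and 27.1% rose. Among KRAB genes with 15 or more fingers found 34 of 43 fell (79.1%, median log2 fold change -0.56). With 10 to 14 fingers 35 of 67 fell (52.2%, median -0.29), and with 5 to 9 fingers 16 of 39 fell (41.0%, median -0.22). With 0 to 4 fingers 2 of 5 fell and 1 rose (median 0.01). In genes without KRAB the shares that fell were 26.7%, 23.1%, 18.9% and 18.9% in the same order of classes, nearer the 17.3% of all genes. Median transcript GC contents of the KRAB classes with 15 or more, 10 to 14 and 5 to 9 fingers were 41.3%, 44.55% and 44.98%. The differences between these classes, and the part of GC content in them, were not tested. Across the 154 KRAB genes Spearman's rho of log2 fold change was -0.26 with finger number, -0.11 with transcript length and 0.56 with GC content. Across the 115 genes without KRAB the same values were -0.10, -0.42 and 0.66.

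GC content was compared in classes because it moved with the fold change in the libraries as a whole. At 40% GC or less 24 of 33 KRAB genes fell, as did 8 of 20 genes without KRAB and 22.6% of other protein-coding genes of the same minimum count. From 40 to 45% GC the shares were 40 of 61 KRAB genes, 7 of 24 without KRAB and 22.4% of other genes. From 45 to 50% GC they were 18 of 36, 3 of 14 and 19.6%. Above 50% GC they were 5 of 24, 6 of 57 and 10.6%. In the 4 classes the median log2 fold change of the KRAB genes was -0.61, -0.44, -0.25 and 0.05, below that of other protein-coding genes, at -0.10, -0.06, 0.03 and 0.23.

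With each library's trends with transcript length and GC content removed, an alternative chosen after seeing the data, 101 KRAB genes fell and 6 rose (median -0.35), and 43 genes without KRAB fell and 19 rose (median -0.11). In that fit 25.5% of other protein-coding genes of the same minimum count fell, with a median of 0.02.

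**Figure D4:**
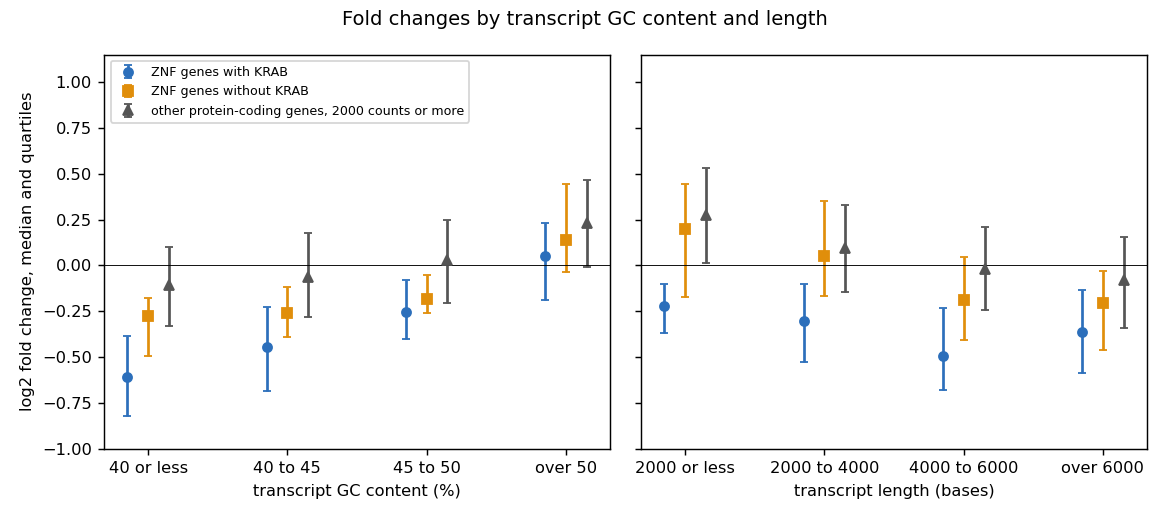
Median log2 fold change (points) and quartiles (lines) by GC content of the matched transcript (left, %) and by its length (right, bases), for ZNF genes with KRAB (blue circles), ZNF genes without KRAB (orange squares) and other protein-coding genes with a mean count of at least 2000 (grey triangles). In each GC class the KRAB genes lie lowest, from -0.61 at 40% or less to 0.05 above 50%, and other genes run from -0.10 to 0.23.

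The rises numbered 20, of which 16 were genes without KRAB. ZNF503, a developmental transcriptional repressor gene on chromosome 10 (75397830 to 75401906, ENSG00000165655.17), rose most. It was at 147, 161 and 161 CPM in control cells and at 245, 346 and 369.9 CPM in TTC3 shRNA cells. Every TTC3 shRNA library was above every control, with replicate 1 the lowest of the 3. The rise was 1.03 ± 0.15 on the log2 scale (adjusted p = 0.00275), and it passed under each of the 18 alternatives.

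ZNF358, on chromosome 19 (7515292 to 7521026, ENSG00000198816.7), was at 66.9, 70.8 and 69.0 CPM in control cells and at 83.9, 139 and 180.1 CPM in TTC3 shRNA cells. The groups did not overlap, but the TTC3 shRNA libraries ranged widely, and the rise of 0.96 ± 0.25 (adjusted p = 0.0228) did not pass without TTC3 shRNA replicate 2 or without any 1 control. ZNF142, a gene of 31 fingers mutated in a neurodevelopmental disorder (chromosome 2, 218637916 to 218659655, ENSG00000115568.16), was at 78.3, 79.0 and 77.1 CPM and then 116, 127 and 121 CPM. The groups were well apart, and it rose by 0.63 ± 0.06 (adjusted p = 0.000419), a call kept without any 1 library.

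ZNF330, which encodes a nucleolar protein (chromosome 4, ENSG00000109445.11), was at 19.004, 20.1 and 20.2 CPM in control cells and 25.6, 31.3 and 34.5 CPM in TTC3 shRNA cells. Its rise of 0.62 ± 0.11 (adjusted p = 0.00653) also held without any 1 library, and its transcript had a GC content of 41.5%, low for a gene that rose. The remaining 6 of the 10 largest rises were ZNF444 (0.80), ZNF787 (0.77), ZNF628 (0.58), ZNF212 (0.58), ZNF865 (0.58) and ZNF696 (0.56 on the log2 scale), each with groups that did not overlap. Calls for all 6 were lost without control replicate 1. ZNF212, shown above by its KRAB core, was at 14.1, 15.2 and 15.04 CPM in control cells and at 17.3, 23.3 and 25.5 CPM in TTC3 shRNA cells.

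Transcript GC content was 68.6% to 71.1% for ZNF358, ZNF444, ZNF787, ZNF628 and ZNF865. With the length and GC trends removed the log2 fold change of ZNF358 was 0.46, of ZNF444 0.33, of ZNF787 0.28, of ZNF628 0.26, of ZNF696 0.26 and of ZNF865 0.23, all still past the test. The other 3 KRAB genes that rose, named after their values were seen, did so by less: ZNF587B by 0.26, ZNF445 by 0.25 and ZNF778 by 0.22. ZNF445 is known for guarding imprinted methylation. It was at 82.9, 85.3 and 86.2 CPM in control cells and 100.2, 102 and 99.7 CPM in TTC3 shRNA cells, so the groups were close together inside and apart from each other. In the transcript table the most counted transcript was higher in every TTC3 shRNA library than in any control for 9 of the 10 largest rises, with ZNF444 the exception.

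Of 19 ZNF genes put on a list for chromatin complexes 14 were among the 272 genes. Of these 4 fell (28.6%) and 1 rose (7.14%), with a median log2 fold change of -0.24. The role of the listed genes, ZNF469 among them, was not tested in these data. Among all 272 genes 41.5% fell and 7.35% rose, and among all tested genes 17.8% and 15.7%. ZNF217, an oncogene of chromosome 20 found with the CoREST and CtBP corepressors, had the most counts of all 272 genes. Its levels were 423, 420.3 and 418 CPM in control cells and 249, 236 and 229 CPM in TTC3 shRNA cells. The groups were tight and far apart, and the fall was 0.82 ± 0.06 (adjusted p = 0.000155).

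ZNF592, ZNF687 and ZNF532 encode partners of the chromatin reader ZMYND8. ZNF592 was at 97.7, 103 and 101 CPM in control cells and 73.5, 67.9 and 64.9 CPM in TTC3 shRNA cells and fell by 0.55 ± 0.07 (adjusted p = 0.00138). ZNF687 (log2 fold change 0.08, adjusted p = 0.518) and ZNF532 (-0.28, adjusted p = 0.171) did not pass. In ZNF532 the TTC3 shRNA libraries were at 160.3, 120.4 and 106 CPM, replicate 1 as high as the controls (152 to 160.3 CPM). The other falls of this list were ZNF462 (-0.54, adjusted p = 0.0189) and ZNF827 (-0.30, adjusted p = 0.0265), whose protein brings the NuRD complex to telomeres. ZNF512B, which also binds NuRD, rose by 0.39 (adjusted p = 0.0189). Calls for ZNF462, ZNF827 and ZNF512B were lost without any 1 control library or without TTC3 shRNA replicate 2, and with the length and GC trends removed ZNF827 was at -0.18. ZNF644, a partner of the histone methyltransferases G9a and GLP, was at 88.2, 82.2 and 78.9 CPM and then 84.9, 67.5 and 64.6 CPM and did not pass (adjusted p = 0.211). Nor did ZNF281 (-0.41), ZNF518B (-0.38), ZNF131 (-0.20), ZNF469 (-0.11), ZNF618 (0.05) or ZNF276 (0.14).

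Of 16 listed ZNF genes whose proteins act on RNA, ribosomes or ubiquitin 14 were present, none fell and ZNF330 rose (median log2 fold change -0.03), against 41.5% and 7.35% of the 272 genes and 17.8% and 15.7% of all tested genes. The difference between the list and the other genes was not tested. ZNF207, whose protein BuGZ serves the mitotic spindle, was at 172, 169.5 and 163 CPM in control cells and 183, 149.7 and 143.5 CPM in TTC3 shRNA cells, with replicate 1 above all controls and the others below. ZNF638, which silences unintegrated retroviral DNA with the HUSH complex, was at 129, 127 and 122 CPM and then 145, 116 and 109 CPM (adjusted p = 0.848). In both the groups overlapped.

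ZNF598, the ubiquitin ligase of collided ribosomes, had a log2 fold change of 0.29 (adjusted p = 0.125). The ribosome assembly genes ZNF622 and ZNF593 had 0.34 (adjusted p = 0.211) and 0.87 (adjusted p = 0.0531). ZNF593 was at 10.4, 11.1 and 11.0 CPM in control cells and 10.9, 23.0 and 25.3 CPM in TTC3 shRNA cells, so that replicate 1 lay within the controls and replicates 2 and 3 far above them, and with the length and GC trends removed its value was 0.21. ZNF451, a SUMO ligase (-0.27), ZNF326, a subunit of the DBIRD splicing complex (-0.29), and ZNF346, a double-stranded RNA-binding protein (-0.03), did not pass, nor did ZNF106 (0.04), ZNF706 (-0.17), ZNF318 (-0.17), ZNF277 (-0.26) or ZNF511 (0.35).

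Of 22 listed activators and signal-linked ZNF genes 18 were present, and 6 fell (33.3%) and 1, ZNF503, rose (5.56%), with a median log2 fold change of -0.17, against 41.5% and 7.35% of the 272 genes and 17.8% and 15.7% of all tested genes. ZNF292, a large transcription factor gene linked to neurodevelopmental disorder, was at 97.3, 94.1 and 95.0 CPM in control cells and 66.0, 46.5 and 44.2 CPM in TTC3 shRNA cells and fell by 0.87 ± 0.15 (adjusted p = 0.00527). ZNF395, reported as hypoxia-inducible, was at 57.3, 58.0 and 58.8 CPM and then 36.6, 42.6 and 40.5 CPM and fell by 0.54 ± 0.07 (adjusted p = 0.00192). Neither gene's groups overlapped. ZNF395 shared 41.4% of its windows with other genes.

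The other 4 falls of this list were ZNF365 (-0.47), ZNF24 (-0.44), ZNF704 (-0.35) and ZNF367 (-0.25), and none of these 4 calls held without any 1 control or without TTC3 shRNA replicate 2. With the length and GC trends removed ZNF24 was at -0.25 and ZNF704 at -0.77. ZNF703, the close relative of ZNF503 and a gene amplified in luminal breast cancer, was at 53.9, 54.7 and 54.2 CPM in control cells and 38.5, 54.3 and 60.3 CPM in TTC3 shRNA cells. It was lower in replicate 1, within the controls in replicate 2 and above them in replicate 3, and did not pass (adjusted p = 0.690). ZNF143, an activator of small nuclear RNA genes (-0.36, adjusted p = 0.155), and its relative ZNF76 (0.02, adjusted p = 0.919) did not pass. Nor did ZNF410 (0.16), known as the activator of CHD4, or ZNF148, ZNF384, ZNF335, ZNF746, ZNF711, ZNF652 and ZNF639, which ran from -0.39 for ZNF711 to 0.19 for ZNF746.

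Of the 5 genes with the highest control CPM 3 fell: ZNF217, ZNF248 and ZNF770. ZNF248, a KRAB gene of chromosome 10 (37776526 to 37858106), was at 229, 223 and 220.2 CPM in control cells and 142, 120.3 and 119 CPM in TTC3 shRNA cells and fell by 0.82 ± 0.08 (adjusted p = 0.000619). ZNF770 fell by 0.35 ± 0.11 (adjusted p = 0.0414), a call lost without any 1 library except TTC3 shRNA replicate 1, and was at -0.18 with the length and GC trends removed. ZNF664 (290.3, 283 and 280.1 CPM, then 313, 228 and 223 CPM) and ZNF121 (249.7, 246 and 238 CPM, then 244, 205 and 202 CPM) had overlapping groups and did not pass. Levels of different genes can be set side by side only per length: per kilobase of matched transcript, control levels were 156.4 CPM for ZNF121, 72.5 for ZNF217, 66.8 for ZNF664, 43.6 for ZNF248 and 38.8 for ZNF770. With ZNF207 and ZNF106, ZNF587 completed the 5 most counted genes that did not pass, and it had close groups of 148, 148 and 152 CPM and 146, 142.8 and 145 CPM.

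TTC3 shRNA replicate 1 was the library of its group nearest the control mean in 216 of the 272 genes. It was the highest of the 3 in 99 of the 113 falls and the lowest in 17 of the 20 rises. The SD was 2.79% of the mean in control cells and 12.7% in TTC3 shRNA cells (medians over the 272 genes). The part of replicate 1 in single results was not tested beyond the counts without it.

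Genes that work with the KRAB proteins were taken from a list of corepressors and heterochromatin proteins. Of 43 such genes 2 fell and 13 rose (30.2%), with a median log2 fold change of 0.08, near the 27.1% that rose and the median of 0.07 among all genes of the minimum count of 2000. Scaled by library totals alone, 6 of the list fell and 6 rose. TRIM28, the scaffold that KRAB domains bind, was at 513, 527 and 539 CPM in control cells and 564, 749 and 793 CPM in TTC3 shRNA cells and rose by 0.42 ± 0.13 (adjusted p = 0.0412), a call lost without any 1 control or without TTC3 shRNA replicate 2 or 3. With the length and GC trends removed its log2 fold change was 0.14. SETDB1, the histone H3 lysine methyltransferase that TRIM28 recruits, was at 34.3, 34.9 and 34.7 CPM and then 30.9, 32.4 and 28.1 CPM, lower in all 3 libraries but not past the test (-0.18 ± 0.07, adjusted p = 0.0897).

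The clearest rises of the list were SUV39H1, another histone H3 methyltransferase (0.74 ± 0.11, adjusted p = 0.00319), and UHRF1, which guides maintenance DNA methylation (0.59 ± 0.09, adjusted p = 0.00286). SUV39H1 was at 25.5, 27.3 and 26.4 CPM and then 36.7, 46.4 and 48.8 CPM, without overlap. CHD3 and CHD4 of the NuRD complex rose by 0.43 and 0.34, the HP1 gene CBX1 by 0.35 and the DNA methyltransferase DNMT1 by 0.35. The 2 falls, named after their values were seen, were RESF1, a cofactor of SETDB1 (-0.73 ± 0.19, adjusted p = 0.0262), and MORC3 (-0.36 ± 0.08, adjusted p = 0.0161). Counts for this list moved with single libraries: 4 to 6 rises without a control or without TTC3 shRNA replicate 2, and 13 falls and 19 rises without TTC3 shRNA replicate 1.

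Other zinc finger families were counted in the same way. Of 45 ZSCAN, ZKSCAN, ZFP and ZBTB genes of the same minimum count 12 fell (26.7%) and 1 rose (2.22%), with a median log2 fold change of -0.16, against 17.3% and 27.1% of all genes of that minimum count. The ZBTB genes, which join a BTB domain to zinc fingers, gave 9 of those falls among 28 genes (32.1%). Tested ZNF genes under the count threshold had 96 falls (44.9%) and 5 rises (2.34%) among 214 (median -0.45), against 17.8% and 15.7% of all tested genes. The 3 genes just inside the threshold were ZNF606, ZNF695 and ZNF138, with mean counts of 2004, 2006 and 2009 and log2 fold changes of -0.42, -0.10 and -0.86. The 3 just outside were ZNF566, ZNF850 and ZNF174, with mean counts of 1994, 1974 and 1919 and log2 fold changes of -0.26, -0.06 and 0.30. The 3 genes without a coding transcript, likewise named afterwards, were the pseudogenes ZNF252P (-0.77), ZNF731P (-0.60) and ZNF271P (-0.36). The first and second fell and ZNF271P did not pass.

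Promoters were compared because members of the same arrays moved together. A RefSeq promoter of 300 bases (250 before and 50 after the start, GRCh38.p14) was matched for 235 of the 272 genes. The bases before the RefSeq start are shown for the largest fall and the largest rise, 5′ to 3′ on the gene's strand. Capitals mark a CCAAT box or a GC box. The ZNF91 stretch is chr19:23395472-23395721 on the minus strand, with CCAAT at base 193 and GGGCGG at base 221. Both motifs lie inside the GENCODE span of ZNF91 given above, which reaches 23395560, as the RefSeq and GENCODE starts differ. The ZNF503 stretch is chr10:75401917-75402166 on the minus strand, with GGGCGG at base 216.
ZNF91: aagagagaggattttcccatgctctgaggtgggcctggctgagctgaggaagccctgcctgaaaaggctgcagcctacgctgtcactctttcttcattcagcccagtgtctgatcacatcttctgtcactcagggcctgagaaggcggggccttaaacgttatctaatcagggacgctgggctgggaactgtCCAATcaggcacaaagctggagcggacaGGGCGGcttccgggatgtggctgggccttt
ZNF503: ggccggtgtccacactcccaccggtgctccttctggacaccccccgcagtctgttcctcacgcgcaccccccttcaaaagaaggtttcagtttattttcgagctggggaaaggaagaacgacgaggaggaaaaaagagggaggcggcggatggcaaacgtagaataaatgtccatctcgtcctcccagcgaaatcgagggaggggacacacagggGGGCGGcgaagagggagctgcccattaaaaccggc

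Motifs were searched on both strands of the 300 bases. The CCAAT box (CCAAT) was in 60.9% of 138 KRAB promoters and 30.9% of 97 promoters without KRAB, against 35.7% of all 27305 promoters. The GC box (GGGCGG) was in 64.5% and 69.1% of the same sets, against 44.6% of all, and in 82.5% of the 40 promoters from those 3 runs of chromosome 19, which were picked out for their falls. The ETS site (CCGGAAGT) was in 20.3% of KRAB promoters, 18.6% of those without KRAB and 4.43% of all, but in 7.5% of those of the 3 runs. The TATA box (TATAAA) was in 3.40% of ZNF promoters against 11.95% of all. Median GC content of the promoters was 60.3% for KRAB genes, 66.0% for genes without KRAB and 58.3% for all. Of 96 promoters of genes that fell 57.3% held a CCAAT box and of 18 of genes that rose 27.8% did. Of all 113 falls 77.0% were KRAB genes, and of all 20 rises 16 were genes without KRAB. The part of class make-up in these 2 shares was not tested. None of these 4 motifs contains another, and a match describes the letters in these windows only.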

How the data were processed

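Total RNA of PC3 cells was depleted of ribosomal RNA and made into directional libraries, per the labels' protocols. The submitters' processing notes name the tools StringTie, STAR and Trim Galore, with hg38 as the build. Not given in the sources used here are tool versions, the annotation release and whether strand was used in counting. The authors deposited estimated counts per gene and per transcript, which were whole numbers and needed no rounding. Libraries were assigned to groups and numbered by their titles. The labels do not say whether libraries of the same number were paired.

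Counts were fitted with edgeR 4.0.16 in R 4.3.3 (filterByExpr, TMM, glmQLFit and glmQLFTest, no block, 3 against 3 libraries). P-values were adjusted by the Benjamini-Hochberg method over 24325 genes, with 0.05 as the threshold. SE is the log2 fold change divided by the square root of F. Levels are CPM on TMM-scaled library sizes. Depth was 143246356 to 155526861 counts per library, so the spread between libraries limits precision. No replicate pair matched within sampling noise, with chi-square values of 4.13 to 49.7 times that noise (medians over genes).

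Genes were named by rule: the 12 largest falls and 10 largest rises that passed without overlap, the 5 highest control levels, the 5 most counted that did not pass, members of 3 role lists, 3 on each side of the count threshold, TTC3, the 6 corepressor genes of lowest adjusted p, TRIM28 and SETDB1. Others are marked as chosen later. The genes and lists were chosen with earlier results of these data known. Positions, transcripts, fingers (C-x(2-4)-C-x(12)-H-x(3-5)-H) and KRAB cores came from GENCODE 29, whose translations stood in for a protein table. Length and GC content are those of the most counted matched transcript, which held at least 50% of the gene count for 231 of 271 genes. A transcript trend was removed by lowess (span 0.5) per library. Alternatives were other scalings, filters and thresholds, DESeq2 1.42.0, limma-voom (limma 3.58.1), a test against a fold of 1.5, a replicate block, each library left out, the trends removed, and count minimums of 1000 and 5000.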

Additional observations from a re-analysis of the deposited data

How the results depend on the processing

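No ZNF gene called in 1 direction was called in the other under any alternative fit. The 12 largest falls kept their calls under the 18 alternatives tried, and 9 of the 10 largest rises lost theirs under at least 1 of them, with ZNF503 the exception. Leaving out 1 library gave 71 to 178 falls and 3 to 53 rises among the ZNF genes, 57 to 120 falls of KRAB genes, and 12 to 55 falls and 3 to 38 rises of genes without KRAB. Over all tested genes it gave 2711 to 7065 falls and 1835 to 6674 rises, and in the corepressor list 0 to 13 falls and 4 to 19 rises. In each of these results the highest count came without TTC3 shRNA replicate 1. Tested against a fold of 1.5, 16 ZNF genes fell and 1 rose, 14 KRAB genes fell, 2 genes without KRAB fell and 1 rose, and no corepressor gene (0) passed, while over all genes 1567 fell and 466 rose. At an adjusted p of 0.01 the counts were 67 falls and 3 rises of ZNF genes, 54 falls of KRAB genes, 12 falls and 3 rises without KRAB, 0 falls and 5 rises in the corepressor list, and 2394 falls and 1688 rises over all genes. Scaled by library totals alone, 13 ZNF genes rose, their median log2 fold change was -0.36 against -0.15 for all genes, 2518 genes rose in all, and the corepressor list had 6 falls and 6 rises. With no filter the corepressor list had 1 fall and 7 rises. With the length and GC trends removed, 43 genes without KRAB and 6 corepressor genes fell, and 2 named genes changed sign, ZNF276 to -0.18 (adjusted p = 0.0248) and ZNF638 to 0.15 (adjusted p = 0.0159); the cause was not tested. At a minimum mean count of 5000, 46 ZNF genes and 28 KRAB genes fell, since fewer genes were counted. DESeq2 called 125 falls and 30 rises. The labels do not say whether same-numbered libraries belong together. Deviations from group means correlated at 0.170, 0.176 and 0.0336 for same-numbered libraries over 11662 genes. For unlike-numbered libraries they correlated at -0.191 to 0.0735. Each control correlated most with the TTC3 shRNA library of its number, and whether these shared a batch was not tested. With a replicate block 105 ZNF genes fell and 18 rose. Depth was not the limit for these genes, each with a mean of at least 2000 counts; the spread between 3 libraries was.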
